A study of Mus musculus with 4 samples.

Results

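The cytosolic ribosomal protein genes are the 83 protein-coding genes, of 50600 genes listed in the tables, whose mouse symbol is Rpl or Rps followed by a number, or is Rplp0, Rplp1, Rplp2 or Rpsa. S6 kinase genes were left out. Of the 83 genes, 46 encode proteins of the large ribosomal subunit, 31 encode proteins of the small subunit and 6 are paralogs of such genes (Rpl3l, Rpl7l1, Rpl10l, Rpl22l1, Rpl39l and Rps27l). The members were chosen by symbol alone and not by their level or change, though with earlier results of these data known. They were measured by RNA sequencing in 4 libraries of T helper 17 (Th17) primary cells of the mouse strain C57BL/6NJ, labelled biological replicates 1 to 4. All 4 form 1 group, with no untreated, mutant or other cell type beside it. The cells came from a CD4 T cell differentiation protocol, and the file headers carry a time of 72 hours. The labels give no sex or age, no allele and no agent beyond that protocol. They name 4 biosamples and 1 donor identifier, so the spread between libraries may be technical, and p-values measure that spread only.

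A ribosome is built from ribosomal RNA and one copy of most ribosomal proteins, which assemble in the nucleolus and join as a large and a small subunit. The large subunit forms peptide bonds and holds the exit tunnel, and the small subunit reads the mRNA. In mammals, ribosomal protein mRNAs typically begin with a cytosine followed by a run of pyrimidines, the terminal oligopyrimidine (TOP) motif, which lets growth signals control their translation as a group. Activated T cells grow and divide quickly and make many ribosomes.

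Pyrimidine runs at the start were looked for in the members' promoters and, for comparison, in all other promoters of the reference. RefSeq promoter sequences of build GRCm38.p6 (250 bases before to 50 after the annotated start) matched 63 of the 83 members. For each member, only the promoter nearest the start of its coding transcript was used. The promoters of other genes were all kept, with no such choice, so the shares are not counted alike. A run of at least 8 pyrimidines that reached within 5 bases of the annotated start was present in 21 of 63 members (33.3%), against 9.67% of 32776 other promoters. A cytosine at the start followed by 4 pyrimidines was present in 12 members (19.05%), against 2.47% of the others. The stretches below show 40 bases before the start and 20 from it, with the longest pyrimidine run at the start in capitals. Rpl7a had the longest run. Rpl28 and Rpl5 had the largest changes between libraries, described below, and Rps6, the target of the S6 kinases, and Rplp2 have a run that begins close to the start. The last 4 lines are 2 paralogs, each followed by its parent gene.
Rpl7a: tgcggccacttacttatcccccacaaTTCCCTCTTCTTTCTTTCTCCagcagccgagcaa
Rpl28: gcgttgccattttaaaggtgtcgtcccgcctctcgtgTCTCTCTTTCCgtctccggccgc
Rpl5: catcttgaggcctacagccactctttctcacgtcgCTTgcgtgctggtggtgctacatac
Rps6: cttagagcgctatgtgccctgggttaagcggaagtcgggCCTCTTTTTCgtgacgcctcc
Rplp2: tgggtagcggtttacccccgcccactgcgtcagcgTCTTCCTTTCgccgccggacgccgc
Rps27l: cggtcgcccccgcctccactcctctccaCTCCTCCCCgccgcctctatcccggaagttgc
Rps27: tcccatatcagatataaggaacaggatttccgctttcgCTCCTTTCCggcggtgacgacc
Rpl22l1: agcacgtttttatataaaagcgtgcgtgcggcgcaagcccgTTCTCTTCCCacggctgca
Rpl22: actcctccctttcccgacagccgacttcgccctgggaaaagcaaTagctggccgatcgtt

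These stretches lie in GRCm38.p6 at chr2:26910767-26910826 for Rpl7a, chr7:4792925-4792984 for Rpl28, chr5:107900488-107900547 for Rpl5 and chr7:141447611-141447670 for Rplp2, all on the plus strand. Rps6 lies at chr4:86857348-86857407 on the minus strand. Rps27l lies at chr9:66946046-66946105 on the plus strand and Rps27 at chr3:90213629-90213688 on the minus strand. Rpl22l1 lies at chr3:28805468-28805527 and Rpl22 at chr4:152325686-152325745, both on the plus strand. Each is placed on the RefSeq start, which can differ from the gene start in the annotation used for the counts. For Rplp2, that annotation starts the gene at 141447370, upstream of the whole stretch. It also starts Rpl7a at 26910764, Rpl28 at 4792874, Rpl22l1 at 28805436 and, on the minus strand, Rps6 at 86857412, each upstream of its stretch. Within the 300 promoter bases of each gene, on either strand, the letters CCGGAAG, which ETS factors bind, were found in 24 of 63 members (38.1%), against 8.80% of other promoters. The letters AAGATGG, which YY1 binds, were found in 9 members (14.3%) against 6.32%, and TATAA, the core of a TATA box, in 17 (27.0%) against 24.9%. The first pair of motifs can overlap by their shared AAG. These are matches of letters and not shown sites.

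Total counts were 37507204 in replicate 2 and 33123029, 35314517 and 37746767 in replicates 1, 3 and 4. Replicate 2 stood apart from the other 3 libraries. The comparisons of replicates 1, 3 and 4 keep replicate 2 in the reference, which widens the spread there. Few calls in them therefore do not show that replicates 1, 3 and 4 are alike. Against them, 3907 of 17337 genes tested (22.5%) were called by edgeR at an adjusted p under 0.05. For replicates 1, 3 and 4 set against all other libraries, edgeR called 0 genes, with 166, 257 and 128 at an unadjusted p under 0.05, and DESeq2 called 2, 15 and 3. The 6 Th17 marker genes were detected in every library, with a summed level of 1378 TPM (each count divided by its gene length, then rescaled so that every library has an equal total) in replicate 2 and 6152, 5618 and 5382 TPM in replicates 1, 3 and 4. Of the 6, Il17a, Il17f, Ccr6 and Il23r were lower in replicate 2 by edgeR at an adjusted p under 0.05. Il22 did not pass, with 183 TPM in replicate 2 and 385, 374 and 304 TPM in replicates 1, 3 and 4. Il1r1 did not pass either and was not lower than in all others, with 42.5 TPM in replicate 2 and 40.8, 44.5 and 44.0 TPM in replicates 1, 3 and 4. In bulk samples, fewer cells of a type and less RNA per cell cannot be told apart.

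Together the members made up 11.3% of all TPM in replicate 2 and 9.83%, 10.04% and 9.66% in replicates 1, 3 and 4. The mean was 10.2% ± 0.751 (SD, n = 4), and 9.85% ± 0.189 without replicate 2. As a share of counts, without a correction for length, it was 5.32% in replicate 2 and 4.53%, 4.61% and 4.42% in replicates 1, 3 and 4. Large subunit genes held 60.3% of the members' TPM in replicate 2 and 59.7%, 59.8% and 60.0% in replicates 1, 3 and 4, so the split between the subunits moved by less than 1 percentage point while the total moved by more.

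Most members were among the most abundant transcripts of the cells. A mean level of at least 100 TPM was reached by 79 of 83 members and 1000 TPM by 31, and members took 18 of the 50 highest and 30 of the 100 highest places among all genes. The highest was Rplp1, with 11754 TPM in replicate 2 and 9696, 9629 and 9611 TPM in replicates 1, 3 and 4. With Rplp0 and Rplp2 it forms the P-stalk of the large subunit, the arm that recruits elongation factors. Rplp0, the base of that stalk, followed with 7161 TPM in replicate 2 and 6303, 6493 and 6047 TPM in replicates 1, 3 and 4. Rplp2 was lower, with 1034 TPM in replicate 2 and 915, 887 and 894 TPM in replicates 1, 3 and 4. The distance of Rplp2 from the other stalk genes depended on the gene length used: with the length of 1 coding transcript, the means were 6545 TPM for Rplp1, 5110 TPM for Rplp0 and 2953 TPM for Rplp2.

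The third highest member was Rpl8, a protein close to the peptide-bond centre, with 6291 TPM in replicate 2 and 5631, 5582 and 5564 TPM in replicates 1, 3 and 4. Rps2, a small subunit protein near the mRNA entry, had 5253 TPM in replicate 2 and 4567, 4709 and 4341 TPM in replicates 1, 3 and 4. Rpl4, which lines the exit tunnel, had 4825 TPM in replicate 2 and 4042, 4335 and 4066 TPM in replicates 1, 3 and 4. Rpl41, Rps15, Rps24, Rpl32 and Rps4x completed the 10 highest, with means of 2919, 2609, 2496, 2355 and 2128 TPM. The order among these 10 was the same in every library for 8 of the 9 neighbouring pairs. The exception was Rps15 and Rps24, whose order turned in 1 library. Over all members, 32 of 82 neighbouring pairs kept their order in all 4 libraries, and the other 50 pairs did not. Whether these pairs differ beyond their spread was not tested. Rpsa, the small subunit protein that is also known as the laminin receptor precursor, was the 15th highest, with 1955 TPM in replicate 2 and 1736, 1747 and 1753 TPM in replicates 1, 3 and 4.

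**Figure D1:**
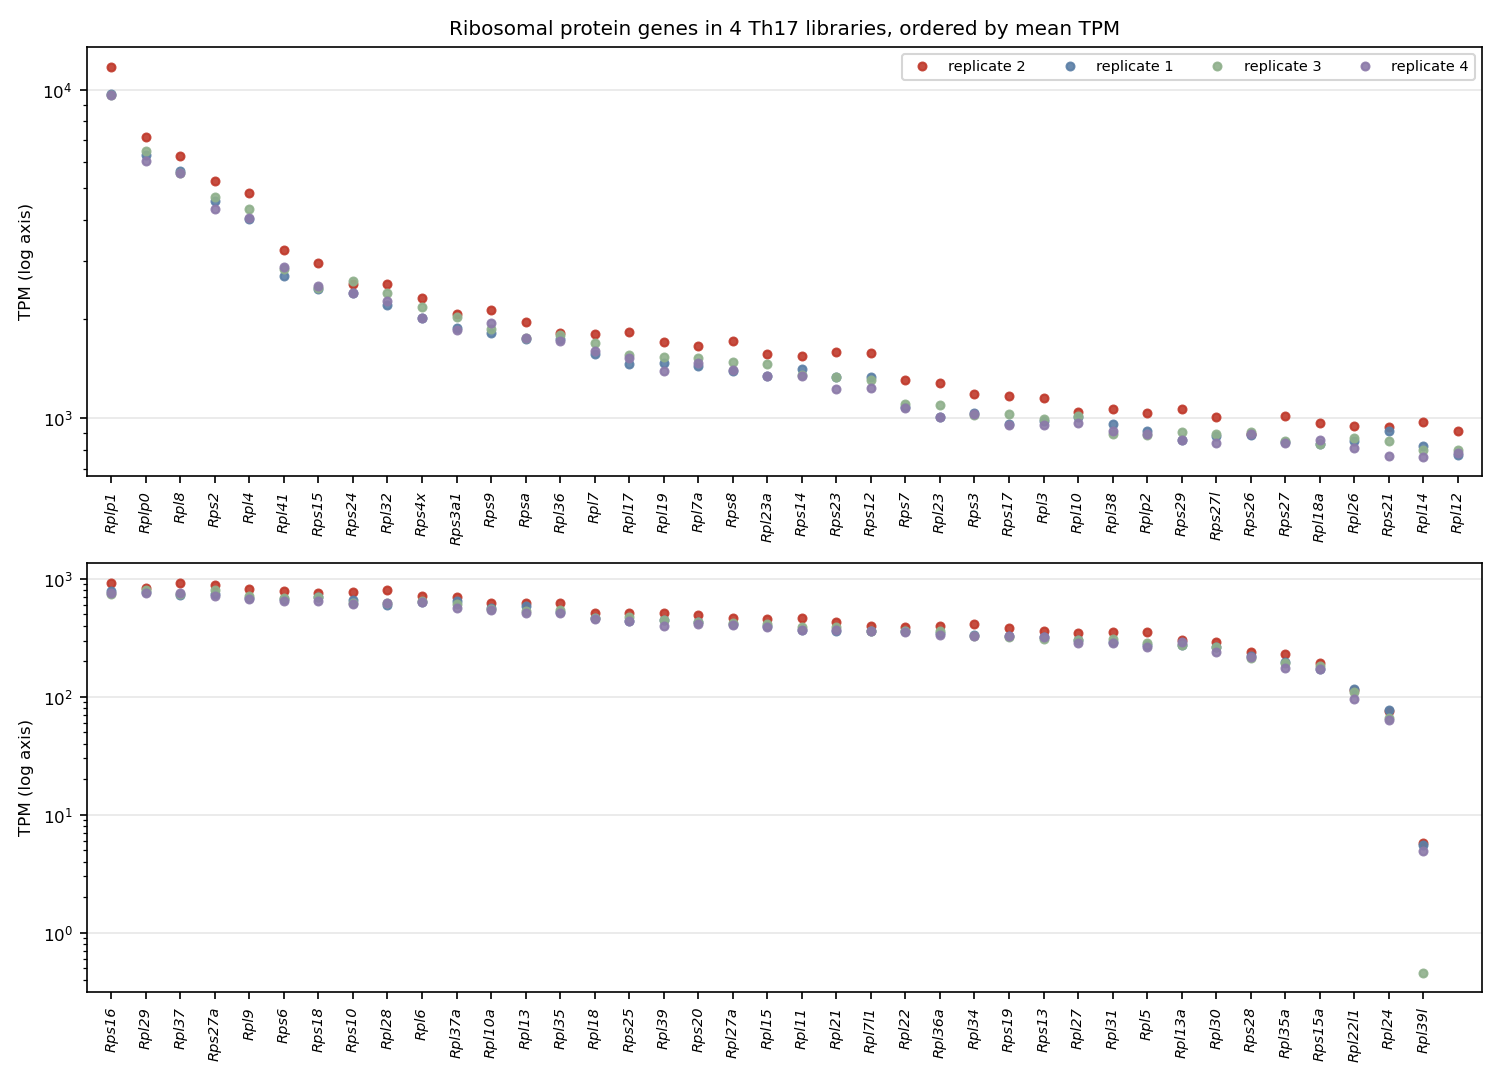
Level of 79 members whose counts over the 4 libraries reached 10, in TPM on a log axis, ordered by mean from left to right over 2 rows. Points are single libraries: replicate 2 in red, replicate 1 in blue, replicate 3 in green and replicate 4 in purple. Rplp1 is highest, and Rpl39l is lowest with replicate 3 far below the others.

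The lowest members were the paralogs Rpl10l, Rpl3l and Rpl39l, followed by Rpl24, Rpl22l1, Rps15a, Rpl35a, Rps28, Rpl30 and Rpl13a. Rpl24 was the lowest of the 77 subunit genes, with 75.9 TPM in replicate 2 and 76.6, 66.5 and 63.2 TPM in replicates 1, 3 and 4. In its coding transcript, 82.2% of all 31-base words also occur in a transcript of another gene, so reads from it can map to several places. The subunit genes spanned 70.6 to 10173 TPM around a median of 866 TPM, with an SD of 1.27 on the log2 scale, and 55.8% of them lay within 2-fold of the median. Their levels were repeatable by comparison with this spread among genes. The median SD between libraries was 0.11 on the log2 scale with replicate 2 and 0.05 without it. It was lower, 0.074 and 0.038, for 2058 other protein-coding genes of at least 100 TPM. It was higher, 0.180 and 0.102, for all 17337 genes tested.

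The spread depended on the gene length used. The tables give a gene's summed exon length, which is far above the length of its coding transcript for some members: 6270 against 640 bases for Rps15a, 3526 against 491 for Rpl35a and 1464 against 271 for Rps28. With the length of 1 complete coding transcript per gene, the SD among the 77 subunit genes was 1.04 on the log2 scale and 75.3% of them lay within 2-fold of the median of 1240 TPM. Rplp1 remained highest at 6545 TPM, followed by Rps2 (5566 TPM), Rplp0 (5110 TPM), Rpl41 (5020 TPM) and Rps9 (4181 TPM). Rps15a had 1134 TPM on this scale, against 180 TPM with the table's length, and Rps24 had 836 TPM against 2496 TPM. The coding transcripts came from a later GENCODE release than the counts. For Rps24, the transcript (1613 bases) is longer than the length over which its reads were counted (840 bases), so its 836 TPM is not a like-for-like level. Rpl24 stayed the lowest subunit gene at 69.1 TPM. Across the 77 genes, level and table length had a Pearson r of -0.47 (Spearman -0.49) on the TPM scale and 0.20 (Spearman 0.22) on the CPM scale, which scales counts to the library total without a length correction. Genes are not independent replicates, and both scales share the same counts.

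**Figure D2:**
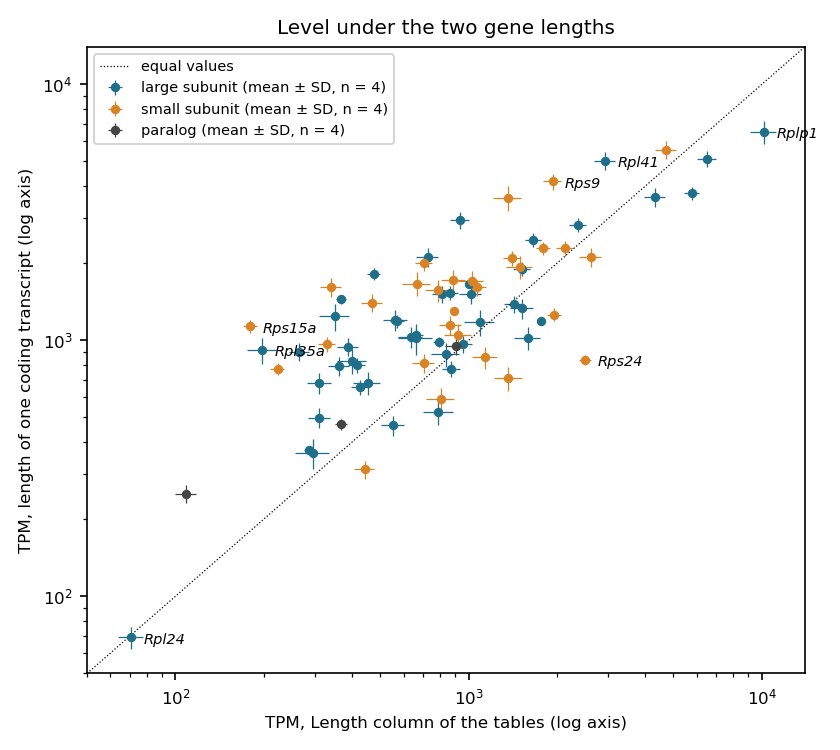
Mean TPM of members with at least 1000 counts, computed with the summed exon length of the tables (x) and with the length of 1 coding transcript (y), both on log axes, with SD over 4 libraries. Points above the dotted line have a higher TPM with the coding transcript length, as for Rps15a (1134 against 180 TPM), and Rps24 lies below it (836 against 2496 TPM). The coding transcript of Rps24, from a later GENCODE release than the counts, is longer than the length over which its reads were counted.

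Large subunit genes had a lower median level than small subunit genes in every library. The median was 826 TPM for the large and 1165 TPM for the small subunit genes in replicate 2. In replicates 1, 3 and 4, it was 709, 732 and 712 TPM for the large and 959, 1023 and 948 TPM for the small subunit genes. On the log2(TPM + 0.1) scale, the difference of medians, large minus small, was -0.46 ± 0.04 (SD, n = 4 libraries). It was below 0 in all 4 libraries, where an exact two-sided sign-flip test over 4 libraries cannot go below 2 of 16 sign patterns and therefore cannot reach 0.05. On the same scale, the median of the 77 subunit genes, without the paralogs, exceeded that of the mitochondrial ribosomal protein genes by 3.38 ± 0.12. It exceeded that of the proteasome genes by 1.82 ± 0.14. Both differences were above 0 in 4 of 4 libraries, again the smallest share of sign patterns that the exact test allows. The proteasome difference was 1.03 on the CPM scale and 2.23 with coding transcript length. Mitochondrial ribosomal protein genes, which build the separate ribosome inside mitochondria, together held 0.795% of TPM in replicate 2 and 0.783%, 0.787% and 0.793% in replicates 1, 3 and 4. The mean was 0.790% ± 0.00573 (SD, n = 4).

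In replicate 2, ribosomal protein genes rose as a group. Each library was set against the other 3 with edgeR's quasi-likelihood test, in which the single library is assumed to vary like the others. These 4 comparisons share libraries. Of the 83 members, 81 had enough counts (at least 10 over the 4 libraries), and 73 of those 81 were higher in replicate 2 at an adjusted p under 0.05, and 0 were lower. Among all 17337 genes tested, 11.7% were called higher and 10.9% lower. The median log2 change of the members was 0.26, against -0.01 over all genes tested. Among large subunit genes, 44 of 46 were higher, with a median of 0.27, and among small subunit genes 27 of 31, with a median of 0.26. Of the 4 paralogs tested, Rpl7l1 and Rps27l were higher.

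The largest changes past the test were those of 5 large subunit genes. Rpl28 had 797 TPM in replicate 2 and 605, 627 and 625 TPM in replicates 1, 3 and 4, a log2 change of 0.43 ± 0.05 (SE; edgeR adjusted p = 4.55e-07). Rpl5 had 351 TPM in replicate 2 and 273, 288 and 266 TPM in replicates 1, 3 and 4, a log2 change of 0.41 ± 0.05 (edgeR adjusted p = 2.60e-06). Rpl11 had 466 TPM in replicate 2 and 371, 394 and 370 TPM in replicates 1, 3 and 4, a log2 change of 0.36 ± 0.05 (edgeR adjusted p = 1.03e-05). Rpl5 and Rpl11 enter the large subunit together with its smallest ribosomal RNA and, outside it, bind the p53 regulator Mdm2. Rpl34 had 412 TPM in replicate 2 and 335, 327 and 326 TPM in replicates 1, 3 and 4 (log2 change 0.38). Rpl37 had 927 TPM in replicate 2 and 729, 742 and 759 TPM in replicates 1, 3 and 4 (log2 change 0.38). In each of these 5 genes, replicate 2 was the highest library and the other 3 lay close together.

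Among the most abundant members, Rplp1 rose by 0.35 ± 0.04 on the log2 scale (edgeR adjusted p = 7.57e-07), Rplp0 by 0.25 ± 0.04 and Rplp2 by 0.26 ± 0.04. Of the small subunit, Rps12 had the largest change, 0.35 ± 0.05, with 1580 TPM in replicate 2 and 1329, 1305 and 1233 TPM in replicates 1, 3 and 4. It was named here after its values were seen. Rps6, the subunit protein phosphorylated in growth signalling, had 788 TPM in replicate 2 and 677, 694 and 651 TPM in replicates 1, 3 and 4, a log2 change of 0.29 ± 0.05. The 4 members on chromosome X moved with the rest: the log2 change was 0.31 for Rpl39, 0.28 for Rpl36a, 0.22 for Rps4x and 0.13 for Rpl10, a protein that joins the large subunit late in its assembly. All 4 passed the test, Rpl10 only just (edgeR adjusted p = 0.0445).

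**Figure D3:**
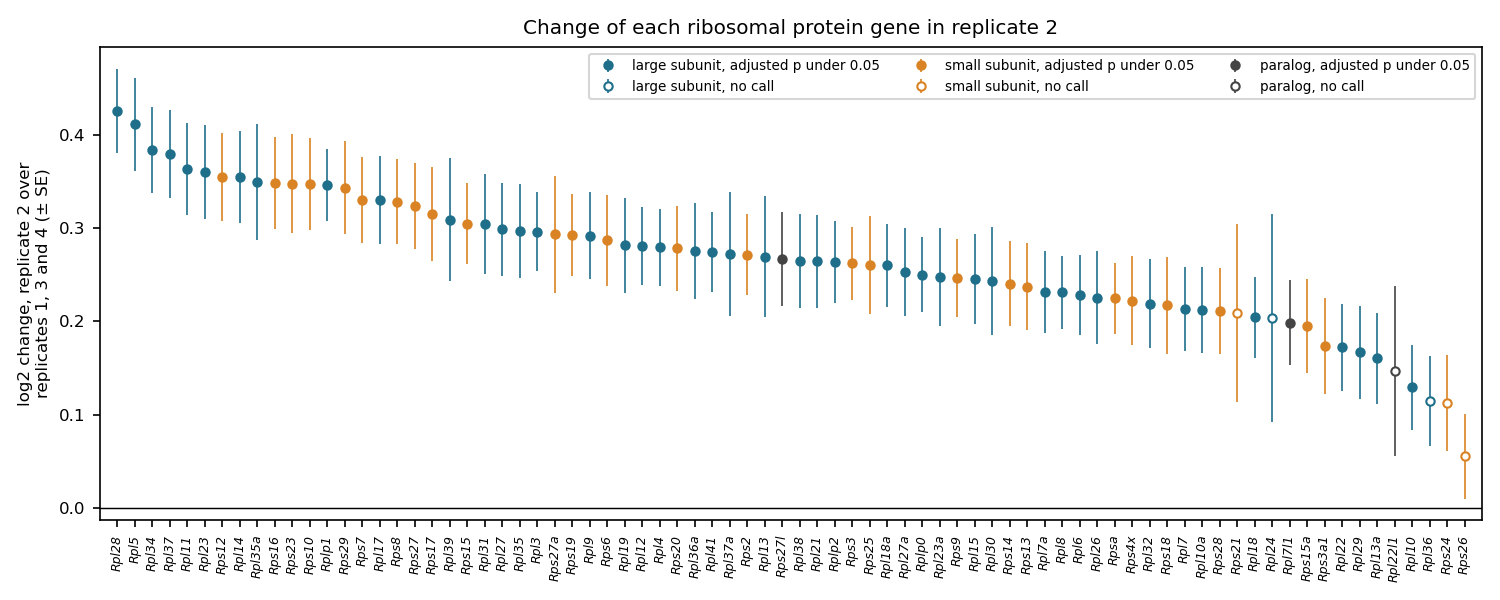
Log2 change of tested members in replicate 2 over replicates 1, 3 and 4 with its standard error, ordered from highest to lowest. Blue is the large subunit, orange the small subunit and grey the paralogs, and open points did not pass the test. All points lie above 0, from 0.43 for Rpl28 to 0.06 for Rps26. The plot shows 78 members, and Rpl39l (0.72 ± 1.26) is not drawn.

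The tested members without a call included Rps26, Rps24, Rps21, Rpl36, Rpl24, Rpl22l1 and Rpl39l. Rps26 had 891 TPM in replicate 2 and 885, 903 and 894 TPM in replicates 1, 3 and 4, so replicate 2 lay within the range of the others. Its log2 change on TMM-scaled counts, which are not scaled to the summed TPM, was 0.06 ± 0.05. Rps21 (0.21 ± 0.10) and Rpl24 (0.20 ± 0.11) had changes near the group's median with larger errors. Rpl10, Rpl13a, Rpl13, Rpl37a and Rps27a are the called members that lost the call under at least 1 alternative scaling, filter, tool or left-out library.

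On TMM-scaled CPM, replicate 2 was the highest library for all 81 tested members, which it was for 35.7% of the 17337 genes tested. Replicate 4 was the lowest for 57 members, replicate 1 for 14 and replicate 3 for 10. On the TPM scale, whose total the members themselves fill in part, replicate 2 was the highest for 76 of 81. On the log2 scale, the gap between replicate 2 and the next library exceeded the whole range of the other 3 for 71 of 81 members, with a median gap of 0.21 and a median range of 0.10. For this gap and for the TPM scale, the share over all genes tested was not computed. The change in replicate 2 was also set against features of the members. Their changes span a narrow range, and whether any feature plays a part in the change of the whole group was not tested. Across 77 subunit genes, Pearson r with the log2 change was 0.06 for table length, -0.05 for GC content, -0.09 for mean level and 0.06 for the share of words in other genes, and across 57 with a promoter it was 0.01 for the pyrimidine run. Of the tested members with a promoter, those with a run of at least 8 pyrimidines had 19 of 21 higher (median log2 change 0.26), and those without had 36 of 40 higher (median 0.27).

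Other genes of like level or length were counted in the same way. Among 2058 other protein-coding genes of at least 100 TPM, 24.8% were higher in replicate 2, and among the 502 of these with a coding transcript of at most 1400 bases it was 31.5%, with a median log2 change of 0.08. Over all 13605 other protein-coding genes tested it was 13.9%. For the members, the share was 90.1%. The part of RNA quality, depth or the lower summed Th17 marker level of replicate 2 in the members' change was not tested. The markers of other cell types were also summed. The B cell markers were 70.0 TPM in replicate 2 and 61.8, 61.4 and 71.8 TPM in replicates 1, 3 and 4, most of it from Ighm, with 2 of 6 markers above 1 TPM. The myeloid markers were 238 TPM in replicate 2 and 186, 202 and 201 TPM in replicates 1, 3 and 4, most of it from Cst3, and 1 of those 6 markers had 0 counts. Of the myeloid markers, Cst3 was called higher in replicate 2 and Adgre1 lower, with 5.73 TPM in replicate 2 and 8.90, 8.77 and 8.42 TPM in replicates 1, 3 and 4. The CD8 and NK cell markers were 34.2 TPM in replicate 2 and 51.8, 45.2 and 49.3 TPM in replicates 1, 3 and 4, with 1 of 5 at 0 counts. Epithelial and stromal markers came to 23.0 TPM in replicate 2 and to 19.01, 21.2 and 21.2 TPM in replicates 1, 3 and 4, and erythroid markers to under 1 TPM in each library. In these last lists, Cd8b1 was called lower in replicate 2 and Pecam1, which leukocytes also express, was called higher, and no B cell or erythroid marker was called by edgeR, with 1 B cell marker at an unadjusted p under 0.05.

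Ribosomal proteins whose symbols fall outside the naming rule were also higher in replicate 2. Fau, a ubiquitin-like protein fused to a small subunit protein, had 1421 TPM in replicate 2 and 1348, 1256 and 1356 TPM in replicates 1, 3 and 4 (log2 change 0.17). Rack1, a scaffold on the small subunit, and Rpl36al rose by 0.16 and 0.17.

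Of 21 other genes with TOP mRNAs, 9 were higher and 1 was lower in replicate 2, with a median log2 change of 0.12. Eef1a1, the elongation factor that brings aminoacyl-tRNA to the ribosome, had 8214 TPM in replicate 2 and 6548, 6775 and 6322 TPM in replicates 1, 3 and 4, a log2 change of 0.39 ± 0.04. Eef2, which moves the ribosome along the mRNA, had 6085 TPM in replicate 2 and 5296, 5207 and 5436 TPM in replicates 1, 3 and 4, a log2 change of 0.26 ± 0.03. Vim, an intermediate filament protein, went the other way, with 594 TPM in replicate 2 and 1187, 1076 and 1124 TPM in replicates 1, 3 and 4, a log2 change of -0.87 ± 0.05. Npm1, a nucleolar chaperone, had 2803 TPM in replicate 2 and 2847, 3238 and 2990 TPM in replicates 1, 3 and 4 and did not pass the test.

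Of 51 ribosome biogenesis genes, 13 were higher and 2 lower in replicate 2, with a median log2 change of 0.06, beside 11.7% higher and 10.9% lower among all genes tested. Polr1e, an RNA polymerase I subunit, rose by 0.38 ± 0.07, Rrp9, a component of a small nucleolar ribonucleoprotein, by 0.33 ± 0.05, and Nop10, of the pseudouridylation complex, by 0.28 ± 0.05. Ltv1, a factor of small subunit maturation, and Tcof1 were lower. Of 12 chaperones and importers of ribosomal proteins, 0 were higher and 3 were lower: Ipo5 (log2 change -0.23), Ipo9 (-0.14) and Tnpo1 (-0.13). Of 20 regulators of TOP mRNA translation and ribosomal gene transcription, 4 were higher and 3 lower. Myc, a transcription factor that drives ribosome production, had 601 TPM in replicate 2 and 468, 463 and 499 TPM in replicates 1, 3 and 4, a log2 change of 0.40 ± 0.05. Eif4ebp2, an inhibitor of cap-dependent translation, rose by 0.32 ± 0.05, while its relative Eif4ebp1 fell by 0.29 on the log2 scale. Mitochondrial ribosomal protein genes had 13 higher and 2 lower of 78 (median log2 change 0.06), and proteasome genes 4 higher and 3 lower of 39 (median 0.00). The differences between these groups and the members were not tested.

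**Figure D4:**
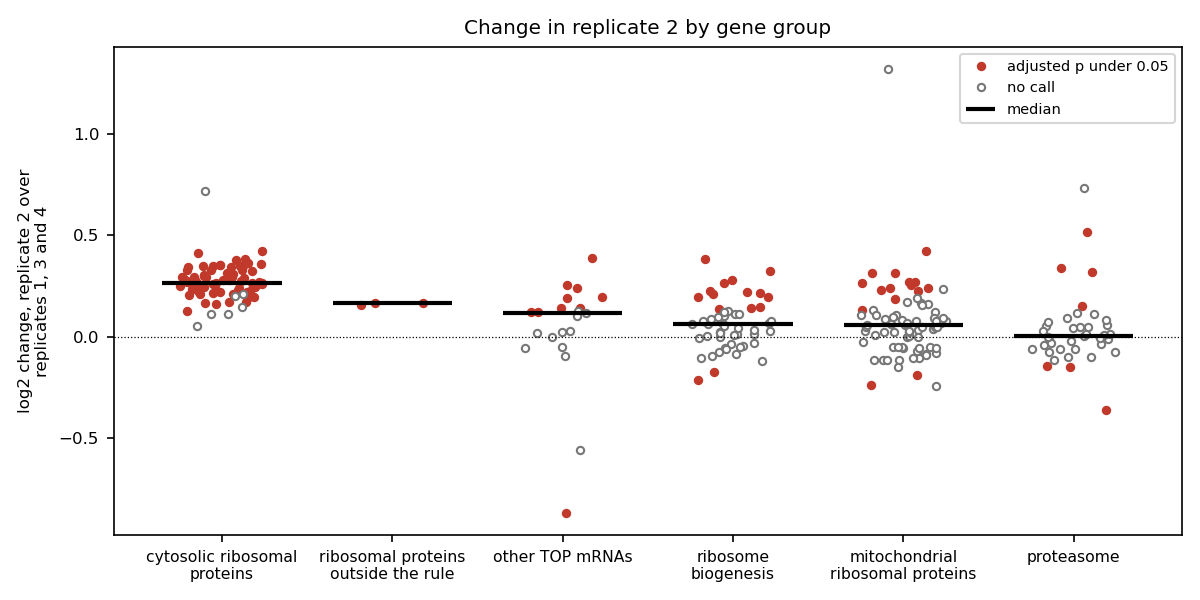
Log2 change in replicate 2 over replicates 1, 3 and 4 for tested genes of 6 groups. Red points passed an adjusted p of 0.05, open points did not, bars are medians of the genes drawn and horizontal jitter is arbitrary. The 79 cytosolic ribosomal protein genes drawn lie above 0 with a median of 0.27, against 0.06 for mitochondrial ribosomal proteins and 0.00 for the proteasome.

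Against the other 3 libraries, 0 members were called in replicates 1, 3 and 4 by edgeR, as were 0% of all genes tested. At an unadjusted p under 0.05 there were 0 members in replicate 1, 1 in replicate 3 (Rpl39l) and 2 in replicate 4 (Rpl22l1 and Rps21), and DESeq2 called 0 members in each of the 3. The median log2 change of the members was -0.08 in replicate 1, -0.05 in replicate 3 and -0.14 in replicate 4, with replicate 2 among the libraries they were set against. Without replicate 2, it was 0.01, 0.05 and -0.06. Because replicate 2 widens the spread of the reference, the 0 calls do not show that replicates 1, 3 and 4 are alike. Variability beyond that of genes of like abundance was found for 0 of 81 members by an edgeR quasi-dispersion test at an adjusted p under 0.05, with 8 at an unadjusted p under 0.05, and for 6 of all 17337 genes (0.0346%). Without replicate 2, 1 member passed that test, Rpl39l.

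The paralogs fell into expressed and nearly silent genes. Rps27l, a gene that p53 induces, reached the level of its parent: 99.0% of the TPM of Rps27 in replicate 2 and 104%, 105% and 99.9% in replicates 1, 3 and 4. With coding transcript lengths it was 55.2% ± 1.62 (SD, n = 4), against 102% ± 2.99 with the table's lengths. Rpl22l1 had 29.2% of the TPM of Rpl22 in replicate 2 and 32.2%, 30.0% and 27.0% in replicates 1, 3 and 4. With coding transcript lengths the mean was 17.4% ± 1.26, against 29.6% ± 2.16 with the table's lengths (SD, n = 4). Rpl22 is required for alpha-beta T cell development in mice and is known to repress Rpl22l1. Rpl7l1, whose product is a nucleolar relative of Rpl7, had 22.0% of the TPM of Rpl7 in replicate 2 and 23.0%, 21.1% and 22.5% in replicates 1, 3 and 4. Rpl36al, an autosomal gene outside the naming rule, had 66.3% of the TPM of the X-linked Rpl36a in replicate 2 and 72.7%, 70.9% and 71.0% in replicates 1, 3 and 4. Except for Rps27l, each paralog lay below its parent in every library.

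**Figure D5:**
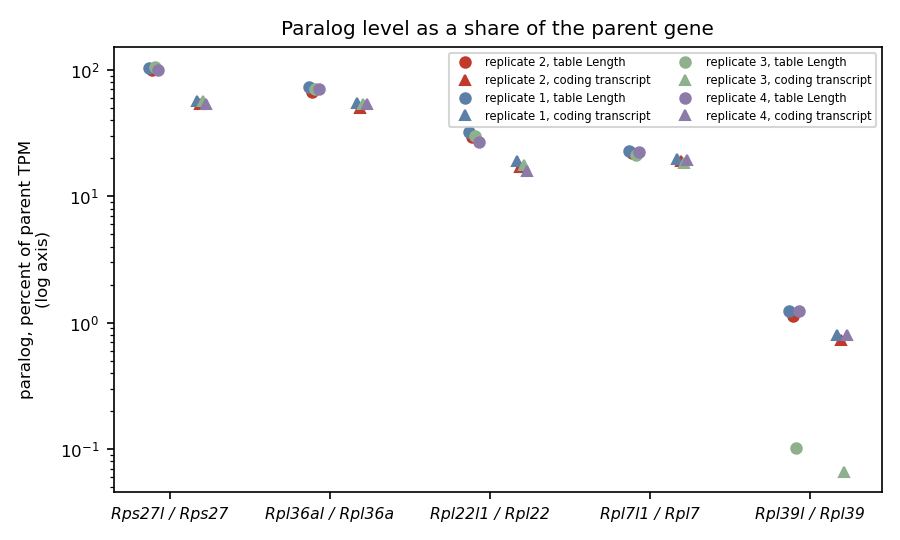
Level of 5 paralogs as a percent of the parent gene's TPM on a log axis, for each library, with the table's summed exon length (circles) and with the coding transcript length (triangles). Rps27l is at 102% and 55.2% of Rps27 on average under these lengths, and Rpl39l of replicate 3 lies an order of magnitude below its other libraries.

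Rpl3l, the paralog that replaces Rpl3 in mouse heart and skeletal muscle, had 0 counts in replicate 2 and 0, 1 and 1 counts in replicates 1, 3 and 4. Rpl10l, which takes the place of the X-linked Rpl10 in mouse male germ cells, had 0 counts in all 4 libraries, where a count of 3 would stand for 0.0800 CPM in replicate 2 and 0.0906, 0.0850 and 0.0795 CPM in replicates 1, 3 and 4. Rps4l is annotated as a transcribed processed pseudogene and is no member, and its TPM was 0.403% ± 0.153 of that of Rps4x with the table's lengths and 0.241% ± 0.0916 with coding transcript lengths (SD, n = 4). Rpl39l, the counterpart of the exit tunnel protein Rpl39 that is enriched in mouse testis, had 55 counts in replicate 2 and 46, 4 and 46 counts in replicates 1, 3 and 4. Relative to total counts, replicate 3 was 12.0-fold below the other 3 libraries, with an exact 95% interval of 4.58 to 44.5 that covers counting error only. It did not pass edgeR's test against all 3 other libraries, and did so without replicate 2 (log2 change -3.47, edgeR adjusted p = 4.35e-04). Only 3.27% of its 31-base words occur in another gene.

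Stretches of the members recur in other transcripts, and the recorded counting command names no option to keep reads that fit several places. In 71 of 83 members, over 33.3% of the 31-base words of the coding transcript also occurred in a transcript of another gene, and the median share was 63.3%. It was 99.0% for Rpl35, 98.7% for Rps27 and 96.8% for Rps10, and 8.95% for Rps3 and 9.99% for Rpl8. Transcripts of other genes that overlap a member's own locus, on either strand, were not left out of this count. Reads from such stretches need not fit several places. In transcripts of pseudogenes alone, the share was 34.0% for Rpl35, 65.1% for Rps27 and 89.7% for Rps10. The level of a member with a high share can therefore be uncertain, though the share alone does not show it. Rps27l with 29.6% shared words and Rps27 with 98.7% are not equally exposed. Across 77 subunit genes, the share of words and the log2 level had a Pearson r of -0.17 (Spearman -0.14). The tables list 281 named pseudogenes of 59 members, whose counts summed to 0.394% of the members' counts in replicate 2 and to 0.399%, 0.401% and 0.422% in replicates 1, 3 and 4.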

How the data were processed

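The deposited values are raw counts of read pairs per gene, 1 table for each of the 4 libraries, made by the authors with featureCounts 1.4.6-p4 on GENCODE M13 with strand option 2, per the file headers. The build is mm10 per the labels. For the aligner and for trimming, the sources used here give nothing. The labels call the assay total RNA, while the linked library protocol is titled as poly(A)+. Symbols and coding transcripts came from a later GENCODE release than that of the counts (50376 of 50600 identifiers matched). TPM was computed here from the counts and the Length column, and CPM from total counts of 33123029 to 37746767. Each replicate was compared with the other 3 in edgeR 4.0.16 (quasi-likelihood, TMM, at least 10 summed counts, Benjamini-Hochberg over all genes tested, threshold 0.05) under R 4.3.3. Standard errors were obtained by dividing the absolute log2 change by the root of the F statistic. On simulated counts for this comparison in replicate 2, the test recovered 35.8% of 67 genes changed 1.2-fold, 79.1% of 67 changed 1.5-fold and 90.9% of 66 changed 2-fold, with 4 false calls among 17265 genes. Shared words were counted over GENCODE transcripts, since no genome was used here.

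Members and gene lists were chosen with earlier results of these data known. Named were the 10 highest and 10 lowest members, the stalk genes and Rpsa, paralogs and parents, X-linked members, the 5 largest changes past the test, and, of other lists, the most abundant and most changed. With 71 members over the limit, shared words are given as counts and extremes. DESeq2 1.42.0, other scalings and filters, left-out libraries, TPM without mitochondrial genes, other pseudocounts and word lengths were tried. Scaling factors computed without the members and coding transcript lengths were added after the data were seen. A few genes are not reported here.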

Additional observations from a re-analysis of the deposited data

Results flagged for a closer look

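In 15 of 81 members, 1 library lay far from the other 3, with a gap, as a share of the whole range, above Dixon's 95% critical value. Chance gives such a gap in about 1 of 20 groups. The share of all genes tested with such a gap was not computed, so the count has no reference in these libraries. In 14 of the 15 it was replicate 2 that was high. These were Rplp1 (11754 TPM), Rpl8 (6291 TPM), Rps15 (2953 TPM), Rpsa (1955 TPM), Rps7 (1307 TPM), Rps3 (1181 TPM), Rps27 (1014 TPM), Rpl37 (927 TPM), Rpl28 (797 TPM), Rpl6 (720.3 TPM), Rpl18 (510.4 TPM), Rpl34 (412 TPM), Rpl7l1 (395 TPM) and Rps19 (381 TPM). Members share libraries and move together, so these 14 are not independent of each other. In the other, Rpl39l, replicate 3 was low at 0.458 TPM, against 5.78 TPM in replicate 2, 5.59 TPM in replicate 1 and 4.94 TPM in replicate 4.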

How the results depend on the processing

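In replicate 2, 70 to 73 members were higher and 0 lower under other scalings, filters and DESeq2, and 72 to 76 with 1 other library left out, where the median log2 change was 0.24 to 0.28. Each tested member kept its direction under all of these. The calls of Rpl13, Rpl37a and Rps27a were lost under DESeq2, that of Rpl10 under RLE factors, no scaling factor, no filter or without replicate 4, and that of Rpl13a under no scaling factor. Rps21 gained a call with no filter, without replicate 1 and without replicate 3, Rpl22l1 and Rpl24 without replicate 1, and Rps24 without replicate 3. Leaving out 1 library gave 0 to 1 members called in replicate 3, 0 in replicates 1 and 4, and 0 to 1 in the variability test. The members' share was 4.72% as CPM and 12.7% with coding transcript length, and 9.85% to 10.4% with 1 library left out. The large minus small subunit difference was -0.47 to -0.44 with 1 library left out. Words of 25 bases gave 73 members with over 33.3% shared, against 71. No paired analysis was possible because the 4 libraries form 1 group. At this depth, Rpl3l and Rpl10l lay at or under the floor of 3 counts and no fold is given for them. The simulated recovery is for genes drawn from a wide range of counts and is not a rate for the members. In simulation, 24 of 67 changes of 1.2-fold were recovered.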

Other observations

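Eif2s3x, an X-linked initiation factor subunit among the other TOP genes, chosen after its values were seen, had 73.7 TPM in replicate 2, 72.2 TPM in replicate 1, 138 TPM in replicate 3 and 129 TPM in replicate 4. The 4 X-linked ribosomal protein genes did not split in this way: Rps4x had 2311 TPM in replicate 2, 2010 TPM in replicate 1, 2178 TPM in replicate 3 and 2013 TPM in replicate 4. Among proteasome genes, the immunoproteasome subunits Psmb8 and Psmb9 were higher in replicate 2 by 0.34 ± 0.05 and 0.52 ± 0.08 on the log2 scale, and Psma6 fell by 0.36.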
